A study of Mus musculus with 24 samples.

Results

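The fasting experiment in α7HMZ livers was made of 6 of the 24 libraries of the series, 3 from mice fasted for 12 h and 3 from fed mice, each from the liver of 1 mouse. The members were taken from the sample labels by genotype, diet and time, and no measured value was used to choose them. α7HMZ mice (a7HMZ in the labels) carry an exon swap at the Hnf4a locus, so that the liver nuclear receptor HNF4α is made only as the P2 isoform, whereas adult WT liver makes the P1 isoform. All were males of 16 to 20 weeks on a mixed 129/Sv plus C57BL/6 background, and all 6 were killed at 10:30. The fed mice had free access to LabDiet chow. As a comparison, 3 fed and 3 fasted WT mice of the same sex, age and background were killed at the same time. When food was withdrawn from the fasted mice is not stated beyond the 12 h, and neither is whether mice of a group were littermates. With 3 mice a group, the p-values measure only the spread between these mice.

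In the fasted state the liver takes up fatty acids from adipose tissue, oxidises them and exports ketone bodies. The nuclear receptor PPARα switches on much of this programme, while falling insulin lowers SREBP activity and with it the synthesis of fatty acids and cholesterol. Glucagon and FOXO1 act on gluconeogenic genes, and feeding times also set the phase of the liver clock. HNF4α is the receptor that maintains hepatocyte identity and binds near many genes of lipid, bile acid and drug metabolism. Its P1 and P2 promoters give proteins that differ at the N-terminus.

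The labels put the fed α7HMZ libraries of 10:30 on flow cell 375 and the fasted α7HMZ libraries on flow cell 377, so that fasting and flow cell cannot be told apart within this comparison. Both WT groups of 10:30 lay on flow cell 375, and therefore flow cell also cannot be told apart from a difference between the responses of the genotypes. Fed α7HMZ mice killed at 13:30 lay on flow cell 377 with the fasted mice but at another time, and values against them are given as a second reference. The fasted α7HMZ libraries held 14567654 to 24088378 counted reads and the fed ones 10655650 to 24602090. In fed replicate 1, 50.8% of the counts fell on Rn45s, a ribosomal RNA precursor gene, and 10.7% on Lars2, against at most 0.35% for Rn45s in the other 5 libraries. Rn45s was left out of library sizes and tests, which left 12097137 counts in that library. Each library was also placed between the groups, over the genes called without it whose log2 fold change was at least 1 in size. Fed replicate 1 lay a median of 30.2% of the way from the other fed to the fasted mice over 735 such genes, against −2.34% and 7.07% for fed replicates 2 and 3. Fasted replicate 3 lay 22.2% of the way to the fed mice over 670 genes, and fasted replicates 1 and 2 lay 5.81% and −1.54% of the way.

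Of the markers of liver cell types, those of hepatocytes such as albumin had the highest sum in every library, with 116000 to 132000 CPM in fasted and 132000 to 159000 CPM in fed α7HMZ livers. CPM here are counts scaled to 1000000 per library without Rn45s, with TMM factors. The Hnf4a counts pool both promoters and do not check the genotype. Its level was 1400, 1390 and 1070 CPM in fasted replicates 1 to 3 and 842, 1190 and 1040 CPM in the fed ones. These ranges overlapped, and the log2 fold change of 0.33 ± 0.15 (SE) did not pass the test (adjusted p = 0.164, edgeR).

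Of 13076 tested genes, 874 were higher and 784 were lower in fasted than in fed α7HMZ livers at an adjusted p below 0.05 in edgeR's quasi-likelihood test, which is 12.7% of the genes, 6.68% in the higher and 6% in the lower direction. Without fasted replicate 1 or 2 the genes called lower numbered 490 and 502. A 2-fold change or more was seen in 329 of the higher and 270 of the lower genes. The 3 fasted and 3 fed CPM values did not overlap in 3682 of the 13076 genes (28.2%), called or not. The median standard error of a log2 fold change was 0.181, and in counts simulated for this comparison 28% of 1.5-fold, 66% of 2-fold and 94% of 4-fold changes were called. Simulated libraries shared the same spread for each gene and had no flow cell effect. They gave 146 calls, far fewer than the data, so these shares may not carry over to the data. Against the fed 13:30 livers 1035 of 13512 genes were higher and 892 lower, or 14.3% (7.66% and 6.6%). These were only in part the same genes. Of the 1658 genes called in the main α7HMZ comparison, 943 (56.9%) kept their call with the 13:30 reference. The sign was kept in 1573, and 6 were called in the opposite direction. Both flow cell and time of day differ between the references, and the cause of the lost calls was not tested. In bulk liver, fewer cells of a type and less RNA per cell cannot be told apart.

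The clearest response of fasted α7HMZ liver was in fatty acid oxidation. Of 49 tested genes of fatty acid oxidation, ketogenesis and PPARα targets, 41 rose and 0 fell in α7HMZ, with a median log2 fold change of 1.14 against −0.01 over all tested genes. In WT liver 42 rose and 0 fell, with a median of 1.18. Against the fed 13:30 livers 40 of the 49 were higher in fasted α7HMZ, and 35 to 42 were higher whichever of the 12 libraries was left out.

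Cyp4a10, a PPARα target that hydroxylates fatty acids at the omega end (mm10, chr4:115518264-115533649), was at 2990, 3080 and 1800 CPM in fasted and at 125, 98 and 97.4 CPM in fed α7HMZ livers. It rose 24.6-fold (log2 4.62 ± 0.23, adjusted p = 1.47e-07, edgeR), with a wide gap between the groups. The rise in WT was 25.4-fold. Ehhadh, the bifunctional enzyme of peroxisomal β-oxidation, went from 383, 266 and 272 CPM fed to 4690, 7900 and 4280 CPM fasted, a log2 fold change of 4.20 ± 0.28 against 2.81 ± 0.26 in WT. The difference of 1.38 ± 0.35 did not pass the test between genotypes (adjusted p = 0.134, edgeR). Pdk4, which blocks the entry of pyruvate into the citric acid cycle, was at 87.8, 94.5 and 82.5 CPM fasted. Its fed values were 18.5, 3.36 and 7.03 CPM, with the highest in replicate 1. The rise of 3.22 ± 0.40 on the log2 scale was beyond this spread (adjusted p = 0.000225, edgeR).

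**Figure D1:**
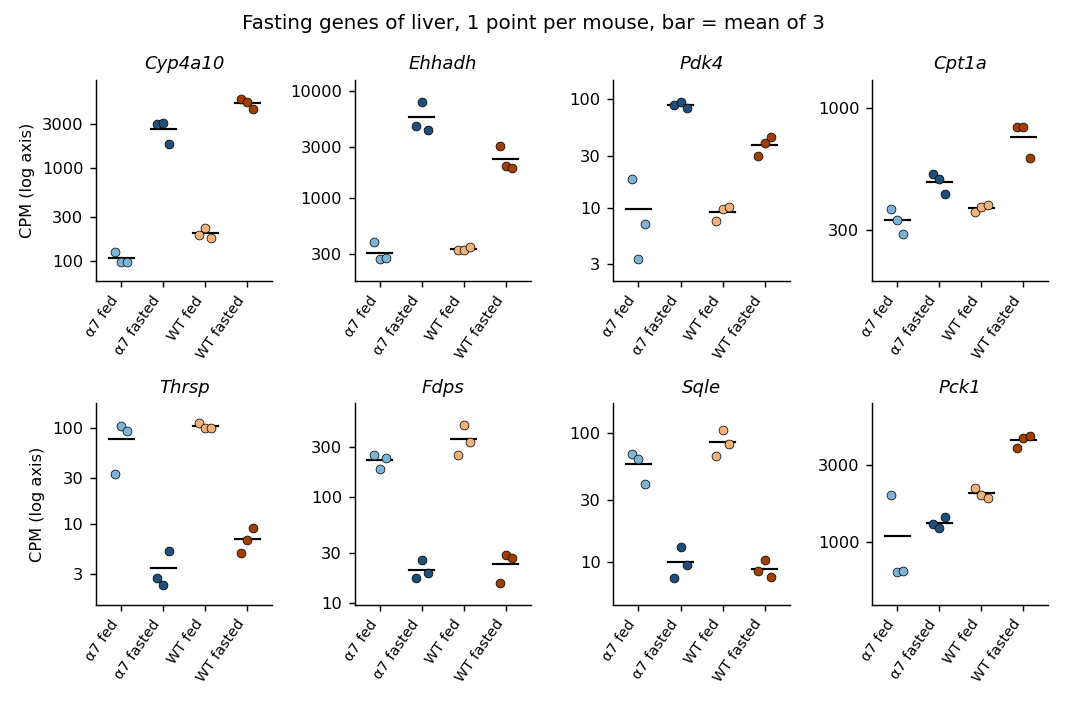
CPM on a log axis of 8 fasting genes in the 4 groups at 10:30, with 1 point per mouse and a bar at the mean of 3 mice. Cyp4a10, Ehhadh, Pdk4 and Cpt1a lie higher and Thrsp, Fdps and Sqle lower in all 3 fasted α7HMZ mice than in all 3 fed ones, while the Pck1 values of the α7HMZ groups overlap, with fed replicate 1 the highest of the 6 mice. Such a lack of overlap was seen in 28.2% of all tested genes.

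Cpt1a, which carries long-chain fatty acids into mitochondria, rose in α7HMZ from 370, 332 and 290 CPM to 521, 496 and 430 CPM (log2 0.54 ± 0.14, adjusted p = 0.0217, edgeR). The WT value was 1.02 ± 0.14. The α7HMZ call for Cpt1a was lost when fasted replicate 1 or 2 or fed replicate 2 or 3 was left out (adjusted p of 0.061 to 0.0804, edgeR), and against the fed 13:30 livers (0.36, adjusted p = 0.14). Plin2, the coat protein of lipid droplets, was at 2010, 3290 and 1540 CPM fasted and 393, 336 and 424 CPM fed, a 5.93-fold rise. Ppara itself went from 213, 169 and 158 CPM to 259, 315 and 295 CPM (0.69 ± 0.18, adjusted p = 0.0212, edgeR), but this was not seen against the fed 13:30 livers (0.10, adjusted p = 0.808), and the call was lost without fasted replicate 2 or fed replicate 2 or 3 (adjusted p of 0.0684 to 0.0783).

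The acyl-CoA thioesterases Acot1, Acot2 and Acot5, which release free fatty acids from their CoA esters, rose 10.7-, 11.1- and 10.4-fold in α7HMZ. They are close paralogs, like the Cyp4a genes, and the counting could share reads between them. Fgf21, the fasting hormone of the liver, was counted 158, 229 and 42 times in the fasted and 8, 2 and 2 times in the fed α7HMZ livers. Its log2 fold change was 4.45 ± 0.86 in α7HMZ and 5.59 ± 0.79 in WT (adjusted p = 0.00405 and 0.000307, edgeR). Angptl4, an inhibitor of lipoprotein lipase, overlapped between the groups, with 218, 220 and 236 CPM fasted and 262, 125 and 160 CPM fed. It did not pass the test (0.30 ± 0.26, adjusted p = 0.497, edgeR).

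The 12 genes with the largest rise also held Cpne5, Ly6d and Slc35f1, and Kirrel, which is described with the genes that differed between the genotypes. Cpne5, a copine that binds membranes when calcium rises, had 300, 889 and 115 counts in fasted α7HMZ livers and 0 in all 3 fed ones. Against a floor of 3 counts over the fed group it was at least 289-fold higher. In WT it had 20, 21 and 15 counts fasted and 0 fed, which is at least 16.5-fold higher. Ly6d, a membrane-anchored surface protein, had 27, 82 and 81 counts fasted and 2, 3 and 3 fed (adjusted p = 0.00929, edgeR, and 0.052 without fed replicate 3). Slc35f1 was at 12.2, 20.4 and 6.62 CPM fasted and 0.455, 1.26 and 0.914 CPM fed (log2 3.88 ± 0.57, adjusted p = 0.000628, edgeR).

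Cholesterol synthesis fell as a group. Of 30 tested genes of cholesterol synthesis and uptake, 22 fell and 0 rose in α7HMZ, with a median log2 fold change of −1.34, and 23 fell and 0 rose in WT, with a median of −2.15. The α7HMZ count was 20 to 24 whichever library was left out and 21 against the fed 13:30 livers. Fdps, which makes farnesyl pyrophosphate, was at 17.1, 25.6 and 19.4 CPM fasted and 250, 185 and 236 CPM fed (log2 −3.43 ± 0.28, adjusted p = 9.13e-06, edgeR). Idi1, the isomerase before it, was at 16.3, 42.4 and 21.5 CPM fasted and 329, 248 and 285 CPM fed. Both genes were clearly separated between the groups. Sqle, the epoxidase at a rate-limiting step, fell 5.59-fold in α7HMZ and 9.43-fold in WT. Only Lss, lanosterol synthase, was called in the test of the difference between genotypes among the 30 genes, with −1.37 in α7HMZ and −2.77 in WT. That call (adjusted p = 0.0465, edgeR) held in 2 of the 12 fits without 1 library and was lost under upper quartile scaling, the GC correction, the replicate block and the 1.2-fold test (adjusted p = 0.054 to 0.0837).

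SREBP2, the factor that drives these genes, binds the sterol regulatory element, and the promoters of the group were searched for the letters TCACNCCAC on both strands over the 250 bases before each start. RefSeq promoters of build GRCm38.p6 were at hand for 21 of the 30 genes. Hmgcs1, the cytosolic HMG-CoA synthase, held a match (4.76% of the genes, against 1.22% of all 27025 genes of the table), shown here with the match in capitals, from chr13:119690206-119690230 on the plus strand, ending 128 bases before the start.
Hmgcs1: tcaccgtcTCACCCCACttcccagg
Hmgcs1 fell by 1.40 on the log2 scale in α7HMZ (adjusted p = 0.0129, edgeR), whereas against the fed 13:30 livers its log2 fold change was 0.30 (adjusted p = 0.598, edgeR). A match of letters is a description of the sequence and was not tested as a site.

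Fatty acid and triglyceride synthesis moved in the same direction with fewer genes. Of 31 tested genes 12 fell and 3 rose in α7HMZ (median −0.11), against 16 and 4 in WT (median −0.52). Thrsp, the lipogenic protein Spot 14, was at 2.71, 2.28 and 5.25 CPM fasted and at 32.9, 105 and 93.1 CPM fed, where fed replicate 1 was the lowest of the fed mice. Its log2 fold change of −4.52 ± 0.42 had the largest size among the decreases named by rule (adjusted p = 2.44e-05, edgeR). Fasn fell 3.37-fold, Scd1 4-fold, Elovl6 4.19-fold, Acly 2.41-fold and Acaca 1.94-fold, which together carry acetyl-CoA to long monounsaturated fatty acids. Srebf1, the gene of SREBP1, fell from 113, 87.3 and 106 CPM to 30.3, 33.4 and 40.8 CPM. Lpin1, a phosphatidate phosphatase, fell 7.39-fold in α7HMZ and 2.33-fold in WT (difference −1.67 ± 0.43, adjusted p = 0.139, edgeR). Acacb, the acetyl-CoA carboxylase at the mitochondrial membrane, went the other way, from 14.4, 15.9 and 14.8 CPM to 37.8, 29.2 and 27.7 CPM, and is taken up below with the genes that differed between genotypes.

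**Figure D2:**
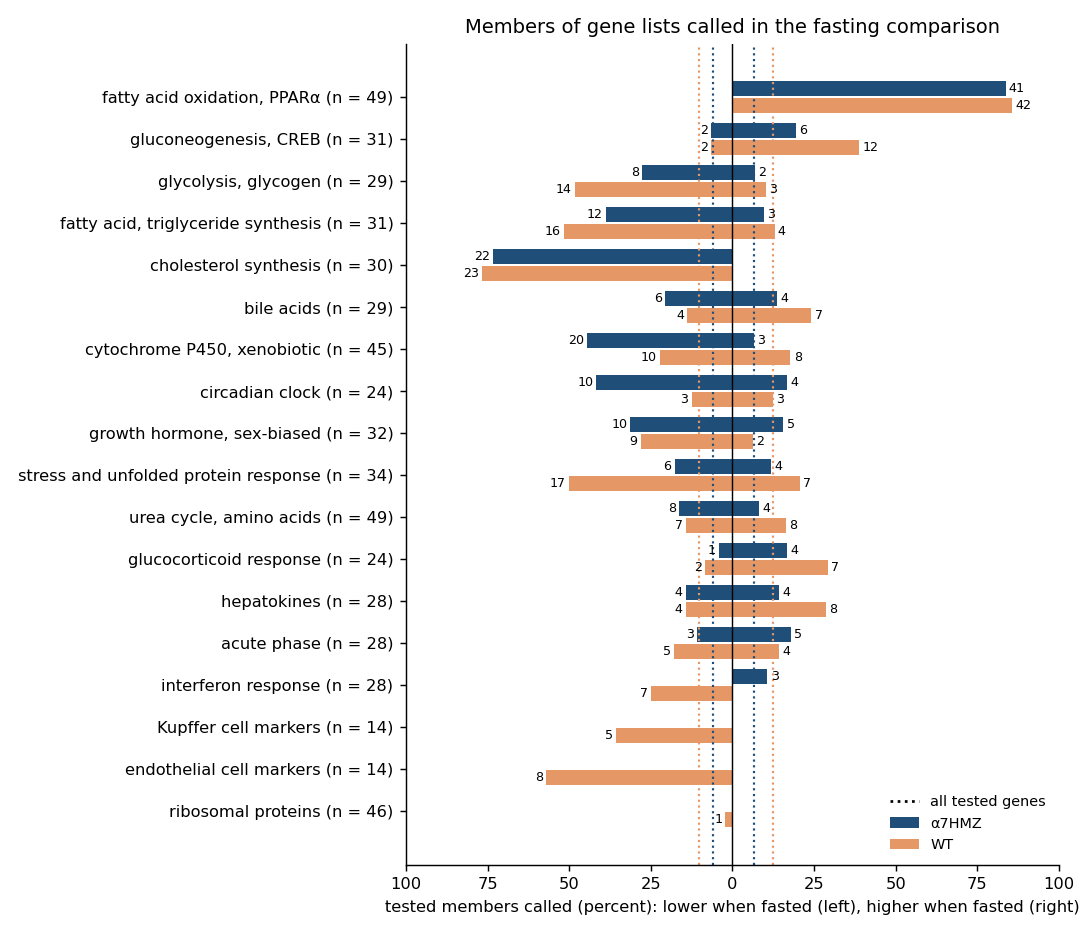
Percent of the tested members of 18 gene lists that were called lower (left) or higher (right) in fasted than in fed livers of α7HMZ (blue) and WT (orange), with the number of genes beside each bar. Dotted lines mark all tested genes; fatty acid oxidation (41 and 42 of 49 higher) and cholesterol synthesis (22 and 23 of 30 lower) stand far from them in both genotypes.

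Glucose genes responded less. Of 31 tested gluconeogenic and glucagon-responsive genes 6 rose and 2 fell in α7HMZ, and 12 rose and 2 fell in WT. For this and the later lists, all tested genes gave 6.68% higher and 6% lower in α7HMZ, and 12.4% and 10.4% in WT. Pck1, the gatekeeper of gluconeogenesis, was at 1280, 1210 and 1420 CPM in fasted and 1950, 647 and 653 CPM in fed α7HMZ livers, so fed replicate 1 lay above all fasted mice. It was not called in α7HMZ (0.27 ± 0.32, adjusted p = 0.646) and rose in WT (1.10 ± 0.33, adjusted p = 0.0277, edgeR), but the difference was not called (adjusted p = 0.398). G6pc, glucose-6-phosphatase, overlapped between the groups in both genotypes (0.34 ± 0.24 in α7HMZ, 0.58 ± 0.24 in WT). Ppargc1a and Tat, both glucagon and glucocorticoid targets, gave −0.75 ± 0.41 and −0.59 ± 0.27 in α7HMZ, neither called, with the highest value of each in fed replicate 1. Gyk, glycerol kinase, rose 2.97-fold, and the immediate early receptor gene Nr4a1 rose 7.06-fold.

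Of 29 tested glycolysis and glycogen genes 8 fell and 2 rose in α7HMZ, against 14 and 3 in WT. The α7HMZ count of 8 dropped to 4 without fed replicate 3 and to 5 without fasted replicate 1, fasted replicate 2 or WT fed replicate 1. Pfkfb3, a regulator of glycolytic flux, fell 4.60-fold. Ppp1r3c, which targets protein phosphatase 1 to glycogen, rose from 33.3, 35.1 and 49.1 CPM to 160, 128 and 105 CPM in α7HMZ (log2 1.74 ± 0.24), and gave 0.26 ± 0.23 in WT with overlapping groups (difference adjusted p = 0.107, edgeR). Irs2, the insulin receptor substrate, gave 2.23 ± 0.44 in α7HMZ (adjusted p = 0.00463, edgeR) and 0.24 ± 0.42 in WT, again with no call in the difference (adjusted p = 0.204). Igfbp1, a classic FOXO1 target, went from 61.5, 16.4 and 20.6 CPM to 127, 120 and 52.4 CPM in α7HMZ. Its log2 fold change of 1.62 ± 0.53 did not pass the test (adjusted p = 0.0634, edgeR). In WT it rose 4.61-fold, and the difference was not called (−0.59, adjusted p = 0.716, edgeR). Against the fed α7HMZ reference that shared the flow cell of the fasted mice, Igfbp1 was called higher (2.78, adjusted p = 0.013, edgeR).

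Of 29 tested genes of bile acid synthesis and transport 6 fell and 4 rose in α7HMZ, and 4 fell and 7 rose in WT. Cyp7a1, the rate-limiting enzyme of bile acid synthesis, was at 9.71, 4.51 and 15.3 CPM fasted and 116, 146 and 52.4 CPM fed in α7HMZ, a log2 fold change of −3.43 ± 0.57 (adjusted p = 0.00152, edgeR). In WT its groups overlapped (−1.31 ± 0.52, adjusted p = 0.0838) and the difference was not called (−2.12 ± 0.74, adjusted p = 0.246). Cyp8b1, the hydroxylase that sets the share of cholic acid, rose 7.73-fold from 52.7, 12.1 and 30.7 CPM to 340, 159 and 237 CPM. In WT it rose 2.80-fold from 332, 523 and 384 CPM. Slc27a2, an acyl-CoA synthetase, and Abcb4, the phosphatidylcholine exporter of bile, rose 2.37- and 2.74-fold, and Akr1d1, a reductase of bile acid synthesis, fell 2.76-fold.

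Of 45 tested cytochrome P450 and nuclear receptor genes of xenobiotic metabolism 20 fell and 3 rose in α7HMZ (median −0.40), against 10 and 8 in WT (median −0.08). The count of 20 was 16 to 21 whichever library was left out, 13 in a fit of the 6 α7HMZ libraries alone and 15 against the fed 13:30 livers. In the test of the difference 4 of the 45 were called, all lower in α7HMZ relative to WT, against 0.107% of all genes in that direction. They were Cyp2b10, Cyp2a12, Cyp2c54 and Por, which donates electrons to P450 enzymes. Of the 12 fits without 1 library, the call held in 6 for Cyp2b10, 4 for Cyp2a12, 2 for Por and 1 for Cyp2c54, whose difference was also not called with the fed 13:30 reference (adjusted p = 0.225, edgeR). Cyp2c29 fell from 765, 514 and 623 CPM to 164, 221 and 165 CPM (3.45-fold) and Cyp2c55 fell 8.93-fold. The Cyp2a, Cyp2b and Cyp2c genes have near-identical neighbours, so single values are uncertain where reads could be split. Nr1i3, the receptor CAR that drives Cyp2b10, rose 2.46-fold in α7HMZ, from 7.19, 4.87 and 3.71 CPM to 13.6, 13.2 and 11.3 CPM, and 2.95-fold in WT, from 85.7, 85 and 105 CPM to 235, 243 and 333 CPM.

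The clock genes need the time of day beside them, since mice of both 10:30 groups were compared at 1 time only. Of 24 tested core clock and output genes 10 fell and 4 rose in α7HMZ, against 3 and 3 in WT, and 6 fell without fasted replicate 2. The same list gave 14 lower and 4 higher against the fed 13:30 livers. Per3, a period gene, was at 0.597, 0.667 and 1.49 CPM fasted, at 3.91, 6.55 and 6.4 CPM fed at 10:30 and at 41.8, 39.9 and 44.5 CPM fed at 13:30. Dbp, a clock output factor, was at 1.90, 1.22 and 3.76 CPM fasted and 3.91, 17.0 and 22.0 CPM fed at 10:30, with fed replicate 1 close to the fasted mice (−2.69 ± 0.52, adjusted p = 0.00384, edgeR). In WT its groups overlapped (−0.19 ± 0.49). Arntl, which encodes BMAL1, rose from 9.83, 9.07 and 18.1 CPM to 33.4, 27.9 and 19.2 CPM in α7HMZ (1.11 ± 0.24, adjusted p = 0.00831, edgeR), with fasted replicate 3 and fed replicate 3 nearly level. At 13:30 the fed level of Arntl was 0.889 to 1.16 CPM. Per1, which also answers to glucocorticoids, gave −0.71 ± 0.29 in α7HMZ (adjusted p = 0.129) and 1.29 ± 0.29 in WT (adjusted p = 0.0072, edgeR), with a difference of −2.0 ± 0.41 that just missed the threshold (adjusted p = 0.0751).

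CLOCK and BMAL1 bind the E-box CACGTG, a palindrome that reads the same on both strands. Of 18 list genes with a RefSeq promoter 5 held it in the 250 bases before a start (27.8%, against 6.86% of all genes of the table). The promoters of Cry1, a clock repressor that was called higher in fasted α7HMZ (log2 0.78, adjusted p = 0.0316, edgeR), of Tef, a PAR factor that was called lower (−1.31, adjusted p = 0.0033, edgeR) and of Per1 are shown with the E-box in capitals, on the strand of each gene, from chr10:85185101-85185122 (minus strand), chr15:81802538-81802559 (plus strand) and chr11:69098775-69098796 (plus strand). Cry1 and Tef were picked after their values were seen, as genes that moved in opposite directions with the same letters.
Cry1: ccggtggtCACGTGgggtgcat
Tef: tgtggctcCACGTGctgcagct
Per1: cccaagtcCACGTGcagggatg

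**Figure D3:**
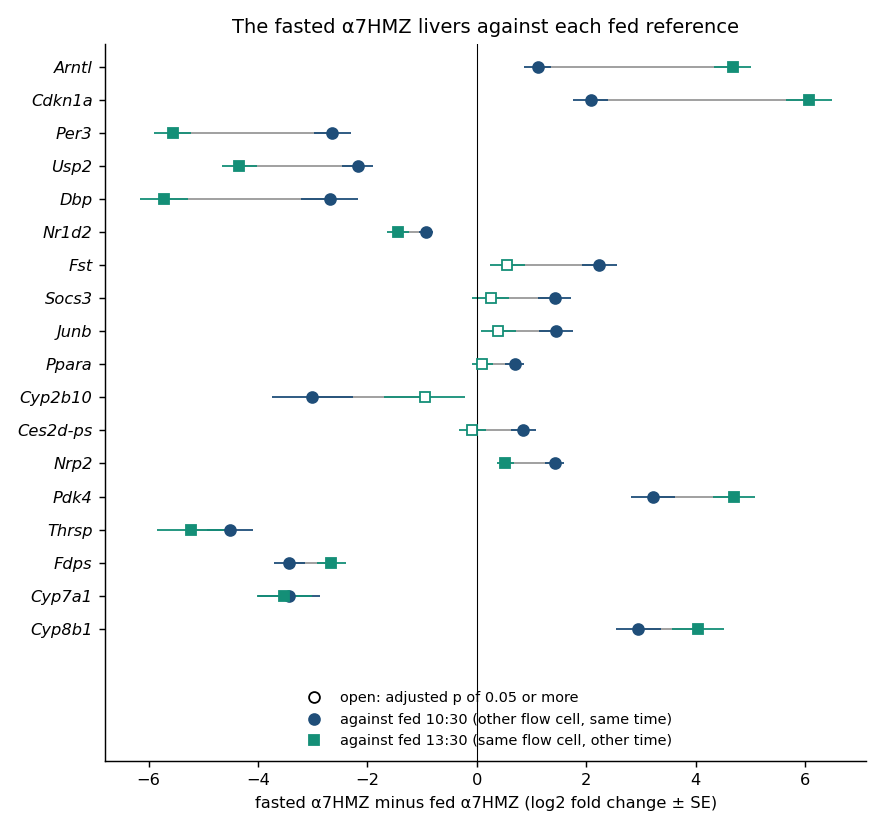
Log2 fold change (± SE) of 18 genes in fasted α7HMZ livers against fed α7HMZ livers of 10:30 (circles, other flow cell and same time) and of 13:30 (squares, same flow cell and other time), with open symbols for an adjusted p of 0.05 or more. Pdk4, Cyp7a1 and Fdps are called with either reference, whereas Fst, Socs3, Junb, Ppara, Cyp2b10 and Ces2d-ps are called only against 10:30, and the clock genes Arntl, Per3, Dbp and Usp2 have a larger size against 13:30.

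Of 28 tested hepatokines 4 rose and 4 fell in α7HMZ. Over all tested genes 6.68% were called higher and 6% lower. Fst, follistatin, rose from 0.728, 1.43 and 0.743 CPM to 5.97, 3.34 and 4.29 CPM, and Inhbe, a hepatokine of the activin family, rose 3.48-fold. Neither was called against the fed 13:30 livers (adjusted p = 0.275 and 0.534, edgeR). Of 32 tested growth hormone and sex-biased genes 10 fell and 5 rose. Hsd3b5, a male-biased steroid dehydrogenase, fell from 46.3, 97.9 and 104 CPM to 7.65, 9.85 and 5.25 CPM, and Ghr, the growth hormone receptor, fell 1.93-fold against 1.99-fold in WT. Upp2, uridine phosphorylase 2, fell 13-fold in α7HMZ and 4.30-fold in WT. Car3, an abundant carbonic anhydrase of liver and fat, was at 365, 423 and 473 CPM fasted and 4320, 4000 and 5510 CPM fed (log2 −3.45 ± 0.24, adjusted p = 2.68e-06, edgeR). Of 49 tested urea cycle and amino acid genes 8 fell and 4 rose, among them Otc (1.85-fold lower) and Oat (1.94-fold higher). The counts of these lists moved by more than 1.5 times with single libraries left out, to 1 to 5 lower hepatokines, 3 to 6 higher and 6 to 11 lower growth hormone genes, and 1 to 5 higher and 3 to 11 lower amino acid genes.

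Of 34 tested genes of the integrated stress and unfolded protein responses 6 fell and 4 rose in α7HMZ, and 17 fell and 7 rose in WT. The α7HMZ count of 6 was 10 without fed replicate 1. Atf5, a stress response factor, rose 2.36-fold and Pdia6, a disulphide isomerase of the endoplasmic reticulum, fell 1.63-fold in α7HMZ, against 3.13- and 2.48-fold in WT. Calr and Pdia4, chaperones of the endoplasmic reticulum, were called in the difference, with −0.31 and −0.05 in α7HMZ and a 2.31- and 1.99-fold fall in WT, and these differences held in 2 and 3 of the 12 fits without 1 library. Of 28 tested interferon genes 3 rose and 0 fell in α7HMZ, and 0 rose and 7 fell in WT. Rsad2, an antiviral protein, went from 5.74, 4.36 and 5.54 CPM to 9.55, 15.3 and 20.4 CPM in α7HMZ (1.53 ± 0.25, adjusted p = 0.00127, edgeR) and overlapped in WT (−0.09 ± 0.25), with a difference that was not called (adjusted p = 0.0934). Of the other lists, insulin signalling and FOXO1 targets gave 3 higher and 4 lower of 32, glucocorticoid response genes 4 and 1 of 24, autophagy genes 3 and 1 of 31, acute phase genes 5 and 3 of 28, immediate early genes 4 and 3 of 23, and hepatocyte transcription factors 4 and 0 of 24. Over all tested genes 6.68% were called higher and 6% lower in α7HMZ, and 12.4% and 10.4% in WT. Counts near these shares are not read as a response of a list. The small counts also moved with single libraries left out. The higher counts became 2 to 3 for glucocorticoid, 2 to 4 for immediate early and 2 to 5 for both interferon and hepatocyte factor genes, and the lower counts 1 to 3 for glucocorticoid, 0 to 3 for both autophagy and interferon, 1 to 6 for immediate early and 0 to 2 for hepatocyte factor genes. Without fasted replicate 3, interferon genes gave 3 lower, and without fed replicate 1, immediate early genes gave 6 lower. Ribosomal protein genes gave no call among 46 in α7HMZ, and respiratory chain genes gave 1 of 44.

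Markers of other cell types were set beside these values. Of 14 Kupffer cell markers none was called in α7HMZ by edgeR at the adjusted threshold. Their summed level was 444, 512 and 1500 CPM in fasted replicates 1 to 3 and 622 to 715 CPM in the fed mice, so that fasted replicate 3 stood above all others. In that library Marco, a scavenger receptor of macrophages, was at 98.8 CPM against 2.06 to 8.92 CPM in the other 5. The same library had the highest sum of the lymphoid list (38.9 CPM against 6.97 to 12.4 CPM) and of the neutrophil list (13.4 CPM against 1.66 to 4.63 CPM). Of the tested markers of these lists 2 of 7 lymphoid and 2 of 3 neutrophil genes were called higher in α7HMZ, all at low counts, such as Ms4a1, the B cell antigen CD20, with 13, 28 and 15 counts fasted and 1 in each fed library (ratio 12.4, 95% counting interval 4.04 to 62.1). In WT 2 of 7 lymphoid genes were higher and 1 lower, and 2 of 3 neutrophil genes were higher. The lymphoid gene Cd79b and the neutrophil genes S100a8 and S100a9 were called higher in both genotypes. Ms4a1 was not called in WT (log2 0.49, adjusted p = 0.605, edgeR), and its difference between genotypes was not called either (adjusted p = 0.234). In WT 5 of the 14 Kupffer cell markers and 8 of 14 endothelial markers fell, with summed Kupffer levels of 254 to 390 CPM fasted and 565 to 731 CPM fed, whereas none of the 14 endothelial markers was called in α7HMZ. The test of the difference called no marker of Kupffer or endothelial cells, so these falls cannot be said to be in WT only. Whether these cells had a part in the interferon values or in the genes that differed between genotypes was not tested. Bile duct markers gave 2 of 8 higher, stellate markers 1 of 14 lower, and hepatocyte markers 1 of 13 lower. Of 2 tested red blood cell markers 1 fell, and both tested adipocyte markers, Car3 and Fabp4, fell. Pancreatic acinar markers summed to 13.7 to 17.7 CPM fasted and 35.5 to 53.2 CPM fed, with 1 of 2 tested, Cela1, called lower. Cela1 made up most of these sums, with 10.9 to 15.5 CPM fasted and 31.8 to 49.2 CPM fed. In the fed group 9 of the 13 acinar markers had no counts.

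Set beside the WT response, 1057 genes were called in the same direction in both genotypes, 571 higher and 486 lower, which is 63.8% of the α7HMZ calls and 35.6% of the 2973 WT calls. In WT 1617 genes were higher and 1356 lower (22.7% of those tested, 12.4% and 10.4% by direction), and without WT fed replicate 2 these fell to 957 and 827. The log2 fold changes of the 2 genotypes had a Pearson correlation of 0.532 across the 13076 genes, which share the same libraries and are not independent replicates. A further 592 genes were called in α7HMZ and not in WT, and 1907 in WT and not in α7HMZ, but the difference itself was called in few of them. The test of the difference called 35 genes (0.268%), 21 above 0 (0.161%) and 14 below 0 (0.107%), and its median standard error was 0.255. At an unadjusted p below 0.05 there were 1957 genes, and DESeq2 called 135 above and 76 below 0. In the simulated counts 40% of 2-fold and 84% of 4-fold differences were called, so that most smaller differences would be missed. Thus 583 of the 592 and 1892 of the 1907 genes cannot be said to respond in 1 genotype only.

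**Figure D4:**
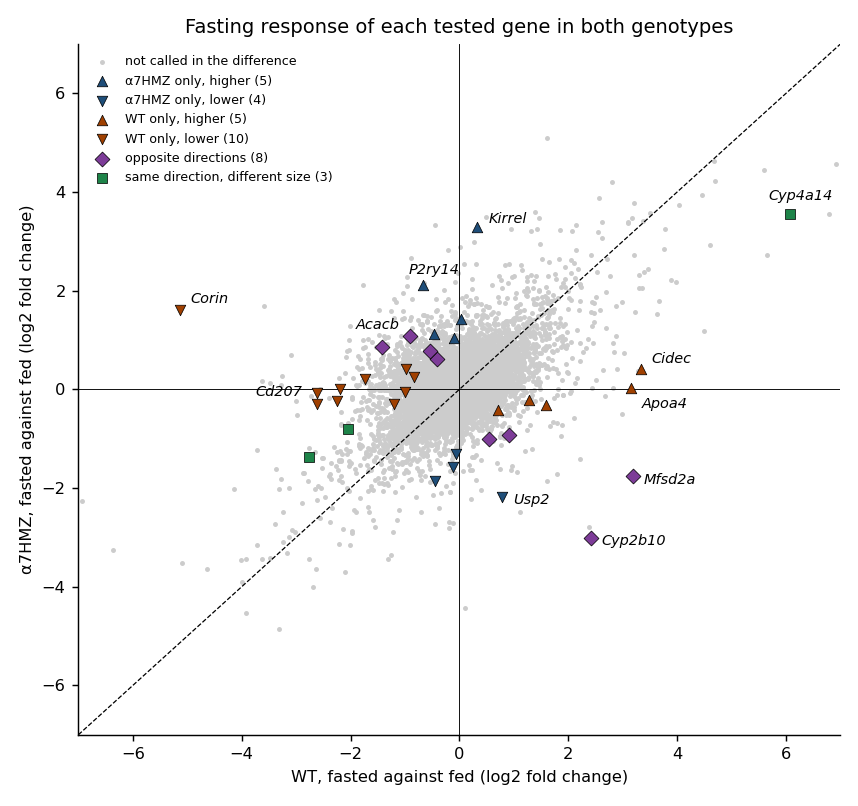
Log2 fold change of fasted against fed livers in WT (horizontal) and α7HMZ (vertical) for each tested gene, with the 35 genes of the test of the difference marked by class and the dashed line at equal change. Axes end at 7, which leaves out 7 genes; Mfsd2a and Cyp2b10 lie at the lower right and Corin at the upper left, far from the line.

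Of the 35 genes 5 were called higher and 4 lower in α7HMZ only, 5 higher and 10 lower in WT only, 8 moved in opposite directions and 3 in the same direction by a different size. For 7 of them, Mfsd2a, Apoa4, Corin, Cd207, Kirrel, Usp2 and Ces2d-ps, the difference was called in all 12 fits that left out 1 library and in all 12 other settings. The 7 were singled out after their values were seen.

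Mfsd2a, a transporter of lysophosphatidylcholine (chr4:122946850-122961188), had the smallest adjusted p. It was at 2.01, 5.30 and 4.17 CPM in fasted and 11.7, 15.4 and 12.6 CPM in fed α7HMZ livers, and at 122, 174 and 183 CPM in fasted and 13, 12.7 and 27.5 CPM in fed WT livers. The fed levels of both genotypes were near each other and the fasted ones moved apart (−1.76 ± 0.35 and 3.19 ± 0.33, difference −4.95 ± 0.47, adjusted p = 0.00103, edgeR). The fall in α7HMZ was not called against the fed 13:30 livers, where the values were 17.1, 1.71 and 3.55 CPM (−0.97, adjusted p = 0.35).

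Apoa4, an apolipoprotein of triglyceride-rich particles (chr9:46240696-46243459), was at 11, 9.46 and 12.3 CPM in fasted and 7.28, 12.3 and 12.2 CPM in fed α7HMZ livers, which overlapped. In WT it rose 8.87-fold, from 123, 138 and 75.9 CPM to 1200, 1120 and 667 CPM. The difference was −3.12 ± 0.38 (adjusted p = 0.00928, edgeR). Cidec, which fuses lipid droplets, behaved alike, with 2.77, 3.14 and 2.09 CPM fasted and 1.91, 2.94 and 1.31 CPM fed in α7HMZ and a 10.0-fold rise in WT (difference −2.91 ± 0.45, adjusted p = 0.0256, edgeR). Its call in the difference held in 7 of the 12 fits without 1 library, with an adjusted p of up to 0.0778.

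Corin, a membrane protease that cleaves natriuretic peptides (chr5:72300025-72504473), was at 26.5, 27.1 and 13.4 CPM in fed and 0.920, 0.491 and 0.458 CPM in fasted WT livers. In α7HMZ it was at 9.33, 19.7 and 13.4 CPM fasted and 0.182, 6.46 and 6.86 CPM fed, with fed replicate 1 far below the others. The rise of 1.61 ± 0.57 was not called (adjusted p = 0.0807), while the difference of 6.75 ± 0.91 was (adjusted p = 0.0107, edgeR). Cd207, the lectin langerin (chr6:83671215-83677857), was at 3.85, 4.71 and 3.88 CPM fasted and 4.46, 3.36 and 5.20 CPM fed in α7HMZ and fell 6.11-fold in WT (difference 2.54 ± 0.36, adjusted p = 0.0128, edgeR).

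Kirrel, an adhesion protein of the nephrin family (chr3:87078593-87174747), rose in α7HMZ only. It was at 18.6, 30.3 and 16.3 CPM in fasted and 3.00, 2.1 and 1.66 CPM in fed α7HMZ livers, and at 2.66, 2.33 and 2.49 CPM in fasted and 2.18, 2.03 and 1.69 CPM in fed WT livers. The fold changes were 9.86 and 1.26, with a difference of 2.97 ± 0.39 (adjusted p = 0.0107, edgeR). Usp2, a deubiquitinase whose RNA follows the clock (chr9:44067021-44095627), was at 1.19, 1.53 and 2.27 CPM fasted and 6.28, 7.97 and 8.23 CPM fed in α7HMZ. In WT it was at 4.29, 3.93 and 5.95 CPM fasted and 2.50, 2.1 and 3.79 CPM fed, which did not pass the test (0.78 ± 0.27, adjusted p = 0.0556), and the difference was −2.96 ± 0.39 (adjusted p = 0.0107, edgeR). Ces2d-ps, a carboxylesterase pseudogene (chr8:104867488-104873861) whose reads may be shared with its coding neighbours, fell 2.70-fold in WT and rose 1.81-fold in α7HMZ. That rise was lost without fasted replicate 2 or fed replicate 2 (adjusted p = 0.0913 and 0.1, edgeR) and turned to −0.08 against the fed 13:30 livers.

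**Figure D5:**
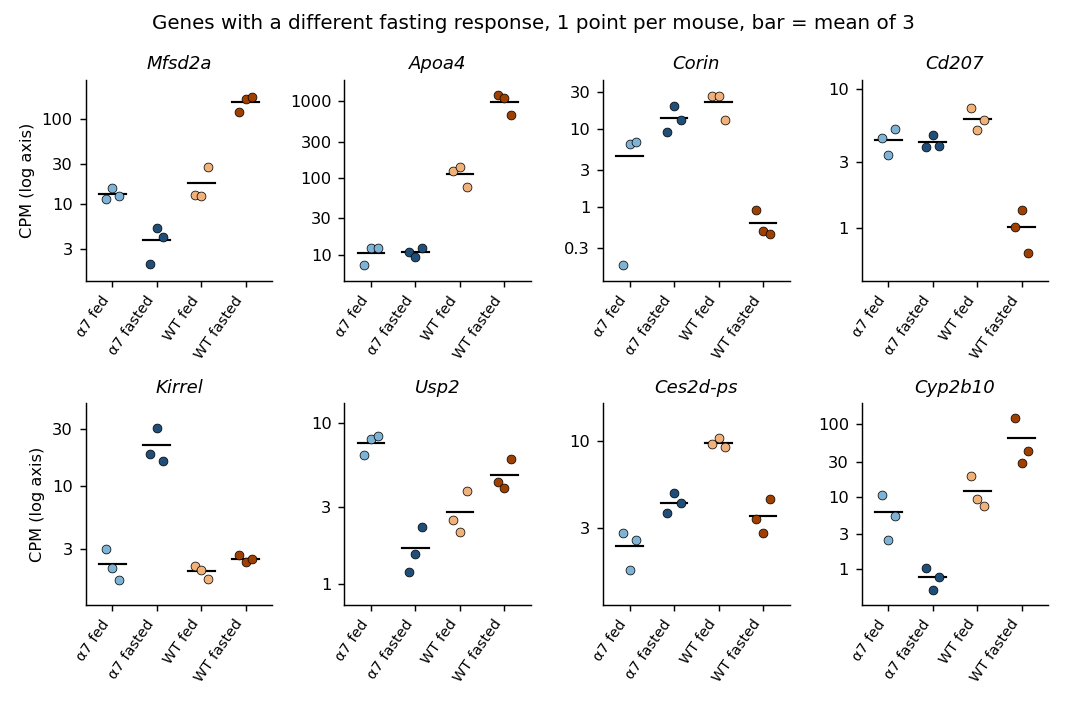
CPM on a log axis of 8 genes called in the test of the difference, in fed and fasted α7HMZ and WT livers, with 1 point per mouse and a bar at the mean of 3 mice. Apoa4 and Cd207 overlap between the α7HMZ groups and separate in WT, Kirrel separates in α7HMZ at 16.3 CPM or more fasted against 3 CPM or less fed, and Mfsd2a and Cyp2b10 fall in α7HMZ and rise in WT.

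Cyp2b10 (chr7:25897620-25926624) had the second largest size of difference, −5.43 ± 0.90 (adjusted p = 0.0317, edgeR), with 1.03, 0.510 and 0.775 CPM in fasted and 10.7, 2.52 and 5.31 CPM in fed α7HMZ livers and 122, 29.0 and 42.6 CPM in fasted and 19.1, 9.35 and 7.34 CPM in fed WT livers. Its fall in α7HMZ was lost without fasted replicate 2 (adjusted p = 0.0688) or fed replicate 1 (adjusted p = 0.0556), and against the fed 13:30 livers it was −0.95 (adjusted p = 0.461). The difference held in 6 of 12 fits without 1 library. Slco1a4, an organic anion transporter, fell 2.01-fold in α7HMZ, from 302, 240 and 263 CPM to 155, 111 and 134 CPM, and rose 1.46-fold in WT, and its difference was lost only without WT fed replicate 2 (adjusted p = 0.0555, edgeR). Acacb rose 2.1-fold in α7HMZ and fell 1.87-fold in WT, from 51.7, 75.2 and 38.1 CPM to 34.4, 29.9 and 23.8 CPM (difference 1.98 ± 0.31, adjusted p = 0.0256, edgeR, held in 7 of 12). Cyp4a14 rose in both genotypes, 11.7-fold in α7HMZ, from 1330, 684 and 774 CPM, and 67.3-fold in WT, from 124, 179 and 159 CPM. Its fasted levels were alike, 7250 to 13700 CPM in α7HMZ and 8470 to 13000 CPM in WT, and the difference of −2.52 ± 0.41 (adjusted p = 0.0272, edgeR) held in 8 of 12 fits.

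The other genes of the α7HMZ response alone were P2ry14, the UDP-glucose receptor (4.34-fold higher), Nrp2, a co-receptor of semaphorins and VEGF (2.67-fold higher), Oasl1 (2.16-fold higher), Lgals3bp (2.07-fold higher), and, in the lower direction, Cyp2c54 (3.62-fold), Hsd17b6 (2.97-fold) and Cyp2a12 (2.49-fold). Of the 12 fits without 1 library, these differences held in 5 for P2ry14, in 4 each for Nrp2, Oasl1 and Cyp2a12, in 2 for Hsd17b6 and in 1 each for Lgals3bp and Cyp2c54. The difference for Hsd17b6 was also lost in 6 of 12 other settings (adjusted p = 0.0516 to 0.0827, edgeR), among them 2 other scalings and the replicate block, and that for Cyp2c54 in 5. Cyp2c54 and Cyp2a12 were at 21.0 to 35.1 CPM and 34 to 51.6 CPM in fed α7HMZ livers and at 610 to 739 CPM and 439 to 471 CPM in fed WT livers. Nrp2 went from 20.0, 18.3 and 17.3 CPM to 47.7, 53.6 and 47.1 CPM. The fed 13:30 livers, on the flow cell of the fasted ones but at another time of day, were at 35.5, 36.3 and 31.7 CPM. The difference for Nrp2 was not called with that reference (adjusted p = 0.182, edgeR). In the WT response alone, Por rose 2.44-fold and Scarb1, the HDL receptor, 1.64-fold, and Fam198a (4.58-fold), Slc41a2 (4.74-fold), Fmn1 (6.15-fold), Ces2c (3.34-fold), Cyp4b1 (1.99-fold) and C1qtnf1 (1.77-fold) fell. The differences of these genes held in 8 of the 12 fits for Fam198a, in 5 for Scarb1, in 4 for Ces2c, in 3 each for Slc41a2, Fmn1, Cyp4b1 and C1qtnf1 and in 2 for Por. With the fed 13:30 reference the difference for C1qtnf1 was not called (adjusted p = 0.0871, edgeR). Fam198a was at 23.7, 26.8 and 21.7 CPM fasted and 21.9, 22.5 and 27.8 CPM fed in α7HMZ, a log2 fold change of 0.00 ± 0.23. The remaining genes of the 35, Emilin1, Mpdz, Gm826, 1810008I18Rik and 1810055G02Rik, lay outside the naming rule, as did Calr and Lss, and are named after their values were seen. Emilin1 and Mpdz, an extracellular matrix glycoprotein and a PDZ scaffold, rose 1.53- and 1.72-fold in α7HMZ and fell 1.33- and 1.46-fold in WT. Their differences held in 3 of the 12 fits each, that of 1810055G02Rik in 6, that of 1810008I18Rik in 1 and that of Gm826 in 0. For Mpdz the difference was not called with the fed 13:30 reference (adjusted p = 0.143, edgeR). Of the 35 calls 8 to 33 were kept when 1 library was left out, with the fewest without WT fed replicate 2 and 10 without WT fasted replicate 2 or WT fed replicate 3.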

How the data were processed

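Polyadenylated liver RNA was read as single-end 75-base reads from a library kit (TruSeq RNA v2) that does not mark strand, so a gene and its antisense partner share reads. Per the methods and the labels, the authors aligned reads to mm10 with TopHat2 2.1.1 and counted them per gene with HTSeq 0.6.1. The deposited values are raw counts of 23411 gene symbols, and no normalised value was used. All columns were matched to samples by their names. The members, gene lists and rule for named genes were chosen with earlier results of these data known.

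Rn45s was removed, since it took about the same number of counts as all other genes in 1 library. The 12 libraries at 10:30 were fitted together in R 4.3.3 with edgeR 4.0.16 after filterByExpr on the groups, which kept 13076 genes. TMM scaling and the quasi-likelihood functions glmQLFit and glmQLFTest were used, and genes with a Benjamini-Hochberg adjusted p under 0.05 were called. The contrasts were fasted against fed in α7HMZ, the same in WT, and their difference. A gene responded in 1 genotype only where it was called there, not called in the other and called in the difference. The standard error of each log2 fold change was obtained from its F statistic. Named genes were the 12 largest changes in each direction (mean log2 CPM of at least 1, no overlap), the 3 smallest p of each of 31 lists, the 10 smallest p in each direction of the difference, the 8 largest differences in each class of response, and 42 fixed genes, of which 1 was not tested. Genes outside this rule are said to be so or are members of a list or of the 35 genes.

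Alternatives were DESeq2 1.42.0, other scaling (relative log expression, upper quartile, or offsets for GC content with full quantiles), other count filters, other libraries in the fit, a replicate block, a 1.2-fold test, Rn45s kept, the fed 13:30 reference, and leaving out each library. Leaving out Lars2 was added after the data were seen. On simulated counts (200 of 13076 genes changed) 2.74% of the calls in the α7HMZ comparison were false, and 4.17% in the difference. The simulation gave each gene the same spread in every library and held no flow cell effect. Its shares therefore do not cover the wider spread between the fed α7HMZ mice or the flow cell. Replicates differed by more than sampling noise (chi-square per degree of freedom of 11.3 or more), so none was counted as a duplicate. Floors cover counting error only. Gene positions came from GENCODE on GRCm38, with 21777 of the symbols paired directly, 1277 by an older symbol and 357 not paired. Promoters came from RefSeq. Some genes that the naming rule takes in are not reported here.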

Additional observations from a re-analysis of the deposited data

Results flagged for a closer look

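The 35 genes below were listed because the test of the difference between the α7HMZ and WT fasting responses called them (edgeR, adjusted p below 0.05). Each value is the α7HMZ log2 fold change minus the WT one, and flow cell and fasting cannot be told apart in the α7HMZ part of it.

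Of the genes that moved in opposite directions, Cyp2b10 differed by −5.43, Mfsd2a by −4.95, Gm826 by −1.83, Slco1a4 by −1.55, Emilin1 by 1.03, Mpdz by 1.33, Acacb by 1.98 and Ces2d-ps by 2.29. Of those called in α7HMZ only, the differences were −2.96 for Usp2, −1.46 for Hsd17b6, −1.40 for Cyp2c54, −1.25 for Cyp2a12, 1.15 for Lgals3bp, 1.40 for Nrp2, 1.57 for Oasl1, 2.78 for P2ry14 and 2.97 for Kirrel. Of those called higher in WT only, they were −3.12 for Apoa4, −2.91 for Cidec, −1.92 for 1810055G02Rik, −1.51 for Por and −1.13 for Scarb1. For the genes called lower in WT only, they were 0.90 for Calr, 0.95 for Pdia4, 1.08 for C1qtnf1, 1.40 for Cyp4b1, 1.96 for Ces2c, 2.01 for Slc41a2, 2.19 for Fam198a, 2.33 for Fmn1, 2.54 for Cd207 and 6.75 for Corin. The genes with a different size in the same direction were Cyp4a14 at −2.52, 1810008I18Rik at 1.25 and Lss at 1.40.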

How the results depend on the processing

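The α7HMZ comparison gave 874 higher and 784 lower genes. With only the 6 compared libraries it gave 528 and 361, in a test against a 1.2-fold change 522 and 414, and with a change of at least 2-fold required it gave 329 and 270. Leaving out 1 library gave 592 to 1020 higher and 490 to 968 lower genes. The WT comparison gave 898 and 778 genes in the 1.2-fold test and 451 and 448 with the 2-fold minimum, and 957 to 1709 higher and 827 to 1629 lower without 1 library. The difference gave 21 and 14 genes. DESeq2 gave 135 and 76, no filter on low counts 35 in the higher direction, all 24 libraries 53 and 40, the 1.2-fold test 7 and 8, and the fed 13:30 reference 428 and 448, where time of day also differs between the genotypes' references. Leaving out 1 library gave 5 to 53 and 3 to 31. With the replicate number as a block the difference gave 11 and 10 genes and the α7HMZ comparison 839 and 717. No pairing of mice by number is stated. Deviations of same-numbered fasted and fed α7HMZ mice correlated at −0.17 to 0.052, and at −0.179 to 0.296 over all 18 same-numbered pairs. So few mice cannot settle whether the numbers pair them. Ces2d-ps turned to −0.08 with the fed 13:30 reference, as did Hmgcs1 and, among genes not called in α7HMZ, Pck1, Slc41a2, Fmn1, Ces2c and C1qtnf1. The cause of these shifts was not tested. In the simulated counts 28% of 1.5-fold changes were called in the α7HMZ comparison. That simulation gave 146 calls, against 1658 in the data. Whether its share holds for a comparison with that many calls was not tested.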
